A study of Mus musculus with 2 samples.

Results

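The genes described here are those of the LIN28 and let-7 axis of fetal cells: Lin28a, Lin28b, Hmga2, Igf2bp1, Igf2bp2, Igf2bp3 and Arid3a. They were chosen by symbol, with earlier results of these arrays known, and a gene was taken as measured where a probe set was annotated to it alone. Of the 7 named genes, 6 had such a probe set, 1 each, among 17874 genes in all. Igf2bp2 was not analysed here. HMGA2 and ARID3A bind DNA rather than RNA, so the set is a fetal expression programme around LIN28 and not a family of RNA-binding proteins throughout.

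Colony-forming unit erythroid (CFU-E) cells, red cell progenitors that normally depend on erythropoietin, were isolated from fetal livers of BALB/c mouse embryos lacking the erythropoietin receptor (EpoR-/-) at gestational day 13.5. Per the protocol, cells bearing markers of other lineages or of late erythroid cells were removed with antibodies and magnetic beads, starting from 40 to 50 livers, and the remaining cells were held without growth factors for 1 h. One sample (3 h, 1 array) was then kept for 3 h in Panserin medium and the other (0 h, 1 array) was lysed at once. The genotype label reads Epo KO where the protocol describes loss of the receptor, and supplemental growth factors appear in the treatment label at 3 h although the protocol says that none were added, so the samples are called by their times. No wild-type sample was analysed here, and both samples carry the receptor deletion. With 1 array at each time there is no replicate spread, no difference below has an error, and no test was made. The receptor gene itself, Epor, stood at 6.89 at 3 h and 7.08 at 0 h on the log2 scale, which checks nothing about the genotype without a wild-type array.

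LIN28A and its paralog LIN28B are RNA-binding proteins with a cold-shock domain and a pair of CCHC zinc knuckles, and both are abundant in embryonic and fetal cells. They bind the loop of let-7 precursors and block the making of mature let-7. LIN28A does so by recruiting the uridylyl transferases TUT4 and TUT7, which prevents processing by DICER. Mature let-7 in turn represses messages such as those of HMGA2, the IGF2BP proteins, ARID3A and LIN28 itself, which makes a switch between fetal and adult states. In mice, Lin28b directs fetal haematopoietic stem cells and fetal-type lymphoid output, with Hmga2, Arid3a and Igf2bp3 among its downstream genes. In human adult erythroblasts, forced expression of LIN28B or IGF2BP1 raises fetal haemoglobin.

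The sequences that tie these genes together are those of let-7, shown here from RefSeq because the seed defines the shared regulator and the loop motif is what LIN28 reads. Neither was measured on these arrays as analysed here. All 9 mature let-7 family sequences in the table of assembly GRCm38.p6 have the same seed, bases 2 to 8, which is in capitals in these 4 examples.
let-7a-5p: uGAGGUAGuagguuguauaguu
let-7d-5p: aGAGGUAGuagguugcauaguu
let-7g-5p: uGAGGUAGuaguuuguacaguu
miR-98-5p: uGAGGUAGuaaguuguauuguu
The 4 mature forms differ in their first base or 3′ of the seed, but not in the seed itself. The LIN28 zinc knuckles are known to bind the letters GGAG in the precursor loop. A search of 12 let-7 family hairpins, on the transcribed strand only, found GGAG 3′ of the mature 5p sequence in 9, or 75% of the 12. These 12 are the ones kept after a filter by chromosome, which was not applied to the larger set given next. GGAG occurred anywhere in 44.5% of all 1005 mouse hairpins in the same table, so it is a common set of letters, and a match is not evidence of binding. The hairpins of let-7g (chr9:106178840-106178927, plus strand) and let-7f-1 (chr13:48537829-48537917, minus strand) hold it, in capitals, whereas that of let-7b (chr15:85707319-85707403, plus strand) does not.
let-7g hairpin: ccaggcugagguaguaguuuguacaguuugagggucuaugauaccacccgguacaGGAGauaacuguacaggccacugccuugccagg
let-7f-1 hairpin: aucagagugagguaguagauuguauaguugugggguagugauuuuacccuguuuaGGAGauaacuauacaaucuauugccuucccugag
let-7b hairpin: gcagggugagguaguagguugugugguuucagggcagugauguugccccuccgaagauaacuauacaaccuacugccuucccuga
These letters are background to the expression values that follow, and the levels of the let-7 miRNAs themselves were not analysed here.

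Among the 6 measured genes, Lin28a was the only one to differ by 1.5-fold or more between the arrays. Its signal was dim at 3 h, while those of Hmga2, Igf2bp1, Igf2bp3 and Arid3a were nearly the same at both times and that of Lin28b was low at both. All values are log2 values made by RMA, a method that corrects background, equalises the distributions of the arrays and summarises the probes of each probe set. The floor for low values was 5.70, the middle of the ranked gene values, and genes with at least 1 value at or above it were counted, 9284 in all and 5 of the 6 measured here. Of these 5, 1 was at least 2-fold lower at 3 h, against 0.872% of all genes at or above the floor. None was at least 2-fold higher, against 2.00% of all genes. Because the genes were chosen with this comparison known, these shares are given as background only.

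**Figure D1:**
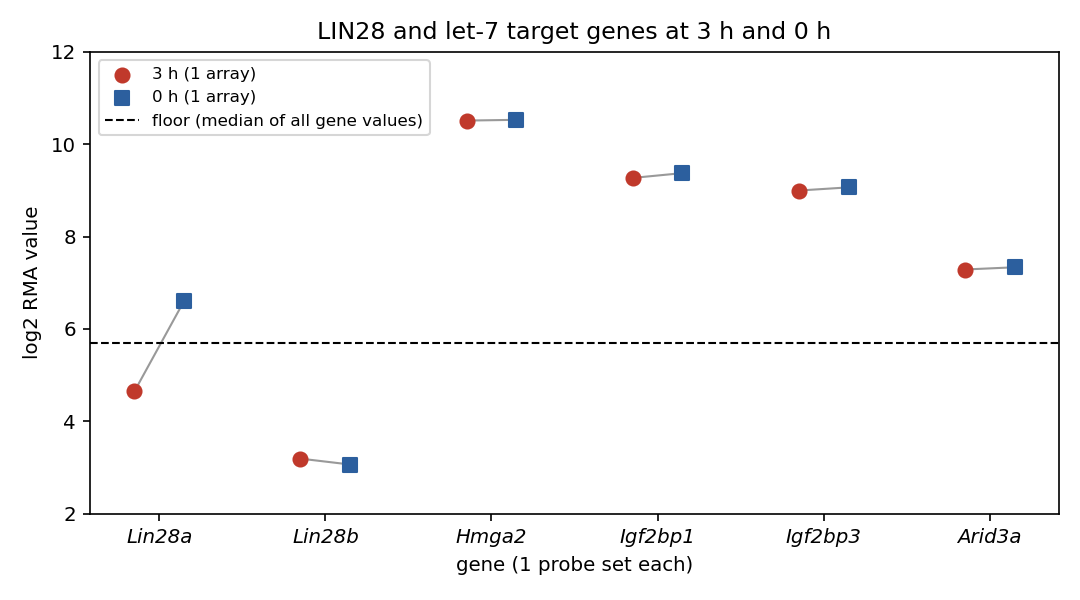
Log2 RMA values (vertical axis) of the 6 measured genes at 3 h (red circles) and 0 h (blue squares), 1 array each, with the floor of 5.70 as a dashed line. Lin28a lies on opposite sides of the floor, at 4.65 at 3 h and 6.61 at 0 h, while the lines of the other 5 genes are nearly flat.

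Lin28a, measured by probe set 1437752_at, had a log2 value of 4.65 at 3 h and 6.61 at 0 h. Relative to the floor, this is -1.05 at 3 h and 0.91 at 0 h. The difference of -1.96 corresponds to a signal 3.90-fold lower at 3 h. Lin28a was counted only through its 0 h value, and its 3 h value is not above the floor, so the size of the fold is uncertain and its place among all genes is partly set by the filter. In a bulk sample, fewer cells carrying a message and less of it per cell cannot be told apart.

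The Lin28a difference lies in the dim part of the range. Of the 81 genes at least 2-fold lower at 3 h, 27, Lin28a among them, were below the floor at 3 h and above it at 0 h, and the other 54 reached it on both arrays. Among the 2216 genes with a mean level between 5 and 6, where Lin28a falls, 22 (0.993%) passed 2-fold downwards and 74 upwards, and the robust SD of the differences was 0.32. As a rough gauge of background, 41 genes typical of other organs were examined. Of these, 7 reached the floor on at least 1 array and 5 were at or above 6.61, the 0 h value of Lin28a. A floor set at the 95th percentile of these genes, 7.21, was above Lin28a on both arrays, and with it Lin28a is not counted. RMA compresses differences between dim signals, which can make a fold too small. Noise with 1 array at each time, and the choice of genes with results known, can make it too large. Neither was measured here.

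The 4 genes whose differences were closest to that of Lin28a were Avpr1a (-2.01), a vasopressin receptor gene, Tnfrsf13c (-1.89), which encodes the receptor of the B cell factor BAFF, Nfkbiz (-2.06), an NF-kB regulator gene, and the immediate early transcription factor gene Egr3 (-1.83). Likeness here is the absolute gap between differences over only 2 arrays, which was 0.048, 0.071, 0.098 and 0.13 in that order. Avpr1a (3.90 at 3 h and 5.91 at 0 h) and Tnfrsf13c (4.25 at 3 h and 6.15 at 0 h) were also below the floor at 3 h, whereas Nfkbiz (8.20 at 3 h and 10.26 at 0 h) and Egr3 (7.003 at 3 h and 8.84 at 0 h) stayed above it. With so few arrays, likeness says only that the differences are of similar size.

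Lin28b, the paralog with the better known role in fetal liver haematopoiesis, gave log2 signals of 3.19 at 3 h and 3.06 at 0 h (probe set 1430803_at). Relative to the floor these are -2.51 at 3 h and -2.64 at 0 h, and the difference was 0.13. A gene may be expressed although its only probe set gives a low signal. Hnrnpa1, for an abundant splicing factor that also binds let-7 precursors, was likewise below the floor in these samples, at 4.10 at 3 h and 4.77 at 0 h. Whether Lin28b was expressed in these cells therefore cannot be read from this probe set.

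Hmga2, an architectural chromatin protein gene and a strongly repressed let-7 target, gave log2 signals of 10.51 at 3 h and 10.53 at 0 h (probe set 1450780_s_at). Its difference of -0.016 was among the smallest on the arrays: 4.41% of genes at or above the floor differed by less. The sign carries no information, since removal of an intensity trend gave 0.015. The suffix of this probe set marks probes that can match more than 1 transcript.

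Arid3a, which encodes a transcription factor of the ARID family, gave log2 signals of 7.29 at 3 h and 7.34 at 0 h (probe set 1419396_at), a difference of -0.048. In size it was larger than 13.1% of the differences among genes at or above the floor. Like Hmga2, Arid3a thus had nearly equal signals on both arrays.

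The IGF2BP proteins bind, stabilise and localise messages such as those of Igf2, Myc and beta-actin, and are oncofetal proteins that most adult tissues lack. Igf2bp1 gave log2 signals of 9.27 at 3 h and 9.38 at 0 h (probe set 1455223_at), a difference of -0.10. Igf2bp3 had 8.998 at 3 h and 9.07 at 0 h (probe set 1453957_a_at), a difference of -0.069. Both were well above the floor at both times, by 3.30 to 3.67, and their differences were larger than 26.7% and 18.2% of all differences in size. Igf2bp1 and Igf2bp3 were each within 1.08-fold of their 0 h signal at 3 h.

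The median difference of the 5 genes at or above the floor was -0.069, against 0.0094 over all 9284 genes, whose robust SD was 0.31. Without Lin28a the 4 others ranged from -0.10 to -0.016. Lin28a alone gives the set its mean of -0.44.

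**Figure D2:**
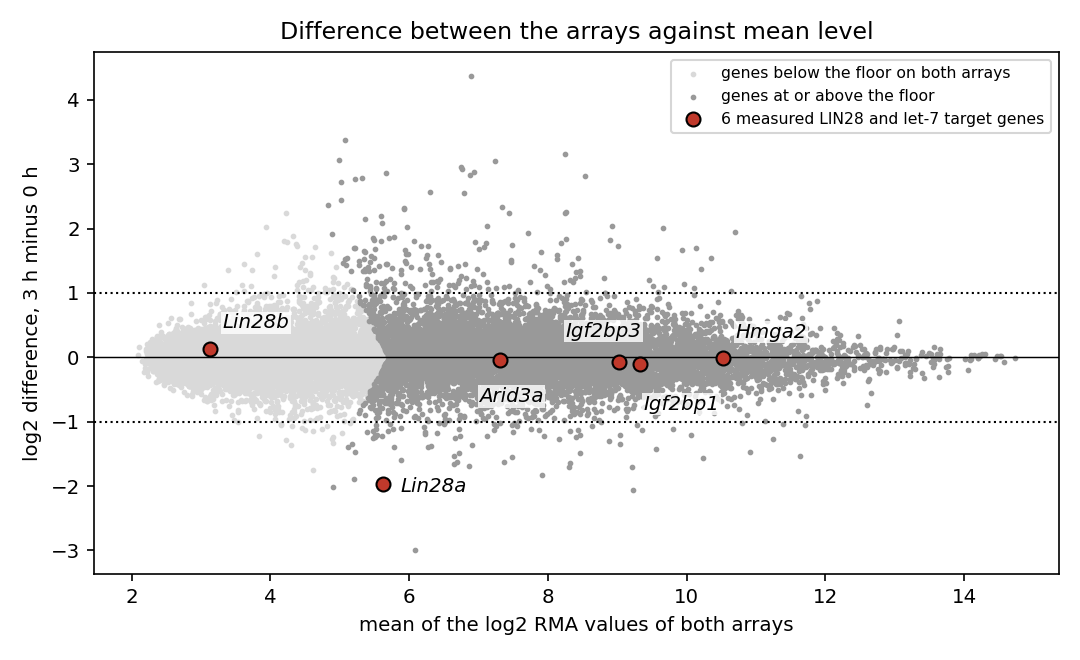
Log2 difference, 3 h minus 0 h (vertical axis), against the mean log2 value of both arrays (horizontal axis) for all 17874 genes, grey where at or above the floor and pale where below it on both arrays, with dotted lines at 2-fold. Lin28a, at -1.96, lies far below the main body of points, and the other 5 red points lie on or near the line of no difference.

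Genes that make, destroy or use let-7 were taken from a list of 24, all measured, of which 20 reached the floor. None of the 20 differed by 2-fold, against 0.872% of all genes lower and 2.00% higher by that much. At 1.5-fold, 2 were lower and 1 higher, against 4.80% and 6.94% of all genes. Their median difference was -0.051. In the nuclear step, Dgcr8, for the RNA-binding partner of DROSHA, had 7.24 at 3 h and 6.48 at 0 h, and Drosha had 7.94 at 3 h and 8.16 at 0 h. The helicase gene Ddx17, a cofactor of that step, was lower, with 5.21 at 3 h and 6.00 at 0 h, and its difference of -0.78 was the largest of the list in size. Ddx17 was below the floor at 3 h and was counted only through its 0 h value. Xpo5 (-0.050), for the exporter of precursors, Dicer1 (0.18) and the DICER partner genes Tarbp2 (-0.053) and Prkra (0.025) differed little.

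The enzymes that act with LIN28A were measured too. Tut4, for the main uridylyl transferase that LIN28A recruits, had 9.18 at 3 h and 9.22 at 0 h. Tut7, its paralog, had 9.42 at 3 h and 8.998 at 0 h, a difference of 0.43 that is below 1.5-fold. Dis3l2, for the exonuclease that degrades uridylated let-7 precursors, was below the floor on both arrays (4.53 at 3 h and 4.72 at 0 h). Both transferase genes were thus measured well above the floor at the time when the Lin28a signal was lowest.

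In the silencing complex, Ago2 (7.63 at 3 h and 8.07 at 0 h) and the scaffold gene Tnrc6b (7.28 at 3 h and 7.83 at 0 h) were lower by less than 1.5-fold. Trim71, the ubiquitin ligase gene also known as Lin41 and a classical let-7 target, had 6.30 at 3 h and 6.89 at 0 h, a difference of -0.59 that just passed 1.5-fold. After centring of all differences on their median, 1 gene of this list rather than 2 was at least 1.5-fold lower, since Trim71 no longer passed, which also holds for the next list.

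Other known let-7 targets differed in both directions. Of 26 listed, 23 were measured and 19 reached the floor. Of the 19, 3 passed 1.5-fold upwards (6.94% of all genes) and 2 downwards (4.80% of all genes). None passed 2-fold, against 2.00% of all genes upwards and 0.872% downwards. The death receptor gene Fas (0.90), the TGF-beta receptor gene Tgfbr1 (0.60) and Mycn (0.60), a paralog of Myc, were higher, and the cyclin gene Ccnd1 (-0.81) and Trim71 were lower. The median was 0.012, close to that of all genes. Ccnd1, with 10.36 at 3 h and 11.16 at 0 h, is also a growth factor target.

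**Figure D3:**
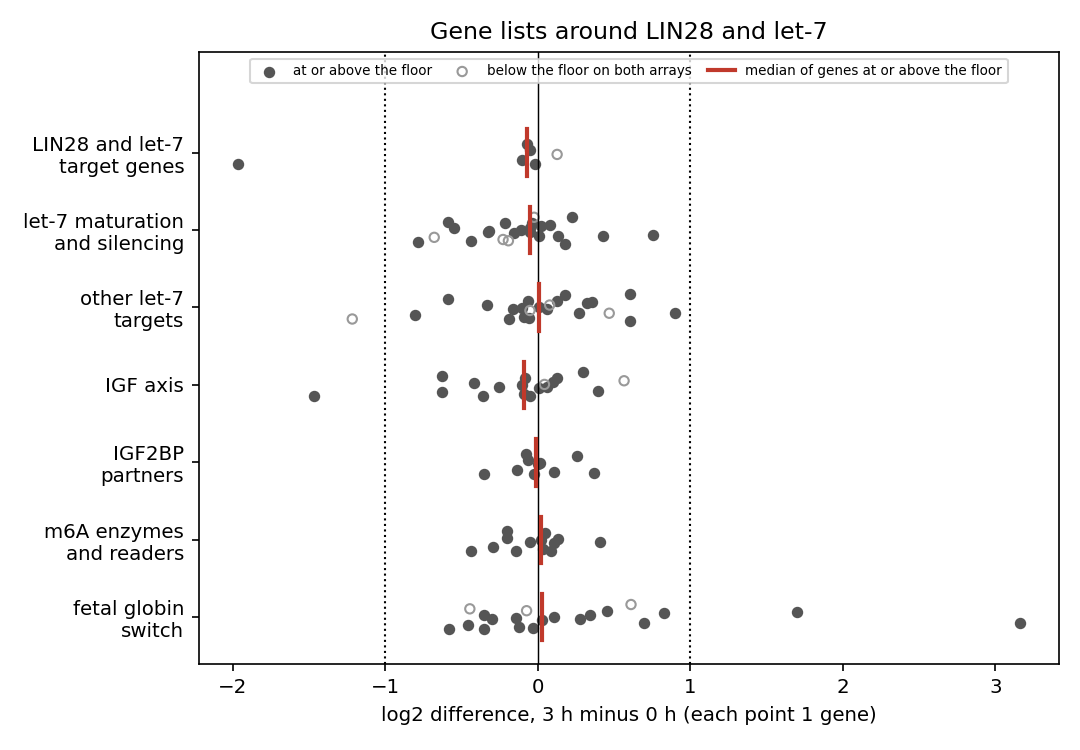
Log2 differences, 3 h minus 0 h (horizontal axis), of the LIN28 and let-7 target genes and 6 related lists, each point 1 gene, filled where at or above the floor, with red bars at the medians of the filled points. All medians lie between -0.088 and 0.027, and Lin28a, the leftmost point, is farther from its median than any other gene on the lower side.

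The IGF2BP proteins take their name from Igf2, whose product drives fetal growth. Igf2 itself gave log2 signals of 11.76 at 3 h and 12.18 at 0 h, a difference of -0.41. Of 16 genes of the insulin-like growth factor axis that reached the floor, 3 were lower by 1.5-fold or more (4.80% of all genes) and none higher by that much (6.94% of all genes), with a median of -0.088. The binding protein gene Igfbp1, with 10.18 at 3 h and 11.64 at 0 h, was 2.76-fold lower, and the receptor gene Igf2r (-0.63) and Igf1 (-0.62) were lower as well. Irs1 (0.40), for an adaptor of the receptors, differed by less than 1.5-fold. Igfbp1 is a secreted product of hepatic cells. Hepatoblast markers had a median difference of -0.19. Of 13, 2 were at least 1.5-fold lower (4.80% of all genes) and 2 at least 1.5-fold higher (6.94% of all genes). Their part in the difference of Igfbp1 was not tested.

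Proteins known to bind messages with IGF2BP1 were measured by 10 genes, all above the floor, and none differed by 1.5-fold. Of all genes at or above the floor, 88.3% also differed by less than 1.5-fold. Syncrip (0.37) and Pabpc1 (-0.35) differed most, and Ybx1, for the cold-shock protein that shares a domain type with LIN28, had 13.30 at 3 h and 13.32 at 0 h. The IGF2BP proteins also read N6-methyladenosine. Of 13 genes for enzymes and readers of this mark none differed by 1.5-fold, as was so for 88.3% of all genes. In that list the methyltransferase gene Mettl14 (-0.43) and Virma (0.41), for a subunit of the same writer complex, differed most, in opposite directions.

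Regulators of the fetal globin switch, which is linked to LIN28B and IGF2BP1 in human cells, were listed with embryonic globin genes of mice and went both ways. Of 17 that reached the floor, 4 were higher by 1.5-fold or more (6.94% of all genes) and none was lower by that much (4.80% of all genes), with a median of 0.027. The embryonic globin genes Hbb-bh1 (9.83 at 3 h and 6.67 at 0 h) and Hbb-y (8.85 at 3 h and 8.16 at 0 h) were higher, as were Sox6 (6.08 at 3 h and 4.38 at 0 h), a repressor of embryonic globin genes in mice, and Gata1 (0.83). Myb had a difference of -0.58, just under 1.5-fold and past it after quantile normalization or removal of an intensity trend, and Bcl11a, for the central silencer of fetal globin, had 8.23 at 3 h and 8.69 at 0 h. Sox6 was below the floor at 0 h and was counted only through its 3 h value. The probe sets of both globin genes and Sox6 carry suffixes for possible matches to other transcripts. Higher embryonic globin signals stood in the same sample as a lower Lin28a signal and nearly equal Igf2bp1 and Igf2bp3 signals. Any relation between these signals was not tested, and Lin28b could not be read here.

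Markers of the cell types that a fetal liver sample can hold were read beside these values. The erythroid list had all 9 measured markers at or above the floor at 3 h and 8 at 0 h. Its median difference was 0.61. Slc4a1 (2.83), Nfe2 (1.11), Gata1, Tal1 (0.78) and Tfrc (0.61) were higher by at least 1.5-fold (6.94% of all genes). Of these, Slc4a1 was below the floor at 0 h and was counted only through its 3 h value. The summed level of the list, the log2 of the sum of its linear values, was 13.87 at 3 h and 13.36 at 0 h. All 13 measured hepatoblast markers reached the floor at both times, with a summed level of 16.56 at 3 h and 16.62 at 0 h. Hepatic messages were thus present in both samples, at high signals. Their summed levels were above those of the erythroid list, although the lists differ in length and in probe sets. Which cells carried the signals of Lin28a, Hmga2, Igf2bp1, Igf2bp3 and Arid3a was not tested. The keratin genes Krt8 (0.95) and Krt18 (0.88) were higher, and Apob (-0.79), for an apolipoprotein, and Hnf4a (-0.70), for a hepatic transcription factor, were lower. Hepatoblasts are known to express Lin28b and Igf2bp genes too.

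Of 10 granulocyte markers, 9 reached the floor at 3 h and 6 at 0 h, with a median difference of 1.06 and a summed level of 13.60 at 3 h and 12.66 at 0 h. Of the 9, 7 were at least 1.5-fold higher (6.94% of all genes) and none was lower by that much (4.80% of all genes). S100a9 (1.94), S100a8 (1.70), Camp (1.67), Lcn2 (1.64) and Ngp (1.06) differed most. Camp, Lcn2 and Ngp were counted only through their 3 h values, being below the floor at 0 h. Among 10 macrophage markers, 3 reached it at each time, and the summed level was 10.96 at 3 h and 10.36 at 0 h. Their differences were 1.83 for Lyz2, 0.997 for Csf1r, which is also the median, and -0.98 for Vcam1. The complement genes C1qa, C1qb and C1qc stayed below the floor on both arrays. Megakaryocyte markers had a median difference of 0.27 and a summed level of 8.52 at 3 h and 8.10 at 0 h (4 and 1 of 5 at or above the floor). Endothelial and stromal markers had a median difference of 0.27 and a summed level of 10.24 at 3 h and 10.02 at 0 h (4 and 3 of 7). All these medians cover genes that reached the floor on either array, so markers above it only at 3 h enter through that value. Over all measured markers the medians were 0.97 (granulocyte), 0.094 (macrophage), 0.065 (megakaryocyte) and 0.079 (endothelial and stromal). Of markers that reached the floor, 5 of 9 granulocyte, 2 of 9 erythroid, 1 of 3 macrophage and 1 of 4 megakaryocyte markers were at least 2-fold higher at 3 h. The share among all genes was 2.00%, and no hepatoblast, endothelial or stromal marker was higher by that much. No marker in these 6 lists was lower at 3 h by 2-fold or more, against 0.872% of all genes at or above the floor. With that share, lists this short would often hold none. The part of the makeup of the samples in the Lin28a difference was not tested.

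**Figure D4:**
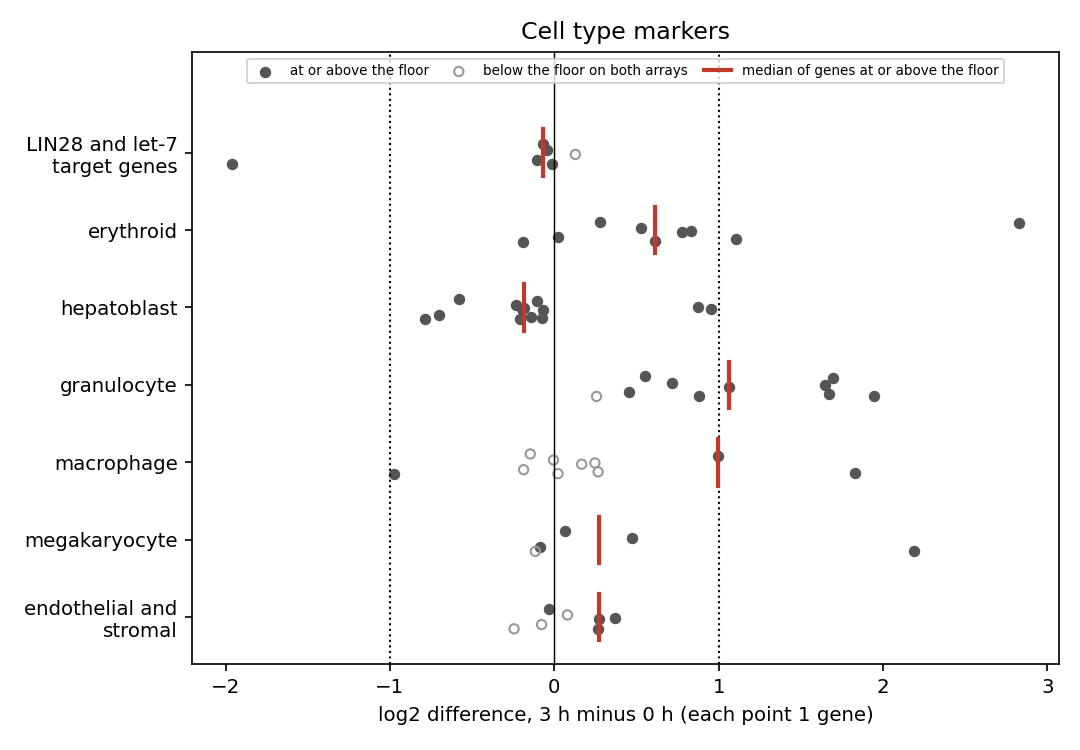
Log2 differences, 3 h minus 0 h (horizontal axis), of the LIN28 and let-7 target genes and of 6 cell type marker lists, each point 1 gene, open where below the floor on both arrays, with red bars at the medians of the filled points. The granulocyte (1.06), macrophage (0.997), erythroid (0.61), megakaryocyte (0.27) and endothelial and stromal (0.27) medians lie right of 0, the hepatoblast median (-0.19) lies left of it, and no marker lies as far left as Lin28a. Over filled and open points together, the medians are 0.97 (granulocyte), 0.094 (macrophage), 0.065 (megakaryocyte) and 0.079 (endothelial and stromal).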

How the data were processed

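Total RNA of each sample (1.5 µg) was labelled with biotin by a one-cycle Affymetrix protocol, per the labels' protocols. The deposited log2 values of 20666 probe sets were made by the authors with RMA and the affy package, per the submitters' processing notes. The sources used here state neither their versions nor the set of arrays processed together. RMA equalises array distributions, so a shift of all messages could not be seen. Arrays carry no read depth, and precision is limited by their number (1 for each time).

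Values were used as deposited. Of the probe sets, 17918 were annotated to 1 gene, and those of the same gene were averaged (43 of 17874 genes). No gene coordinates are given, since no genome build is tied to the probe sets. Named genes were the 7 members, genes of the related lists with the largest differences (up to 5 of each at or above the floor), any gene of the let-7 maturation, related-family and globin switch lists, and the 4 closest to Lin28a. Epor, C1qa, C1qb and C1qc were added for their roles. Members and lists were chosen with earlier results of these data known. Counting steps were tested on simulated data, with planted differences larger than the fold thresholds and only in genes well above the floor. That test says nothing about dim genes such as Lin28a or differences near the thresholds. Software was pandas 2.3.3, numpy 2.4.6, statsmodels 0.14.6 and matplotlib 3.10.9 under Python 3.11.15.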

Additional observations from a re-analysis of the deposited data

How the results depend on the processing

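Lin28a stayed between -2.00 and -1.96 after quantile normalization, median centring and removal of an intensity trend (loess, span 0.3). The other alternatives were use of the probe set with the highest mean and exclusion of probe sets with suffixes that mark several matches. Neither could change Lin28a, since each measured gene has 1 probe set and that of Lin28a carries no such suffix. The exclusion removed Hmga2 and Igf2bp3. Over the same alternatives Igf2bp1 lay between -0.10 and -0.094, Arid3a between -0.087 and -0.043, Igf2bp3 between -0.079 and -0.063, Lin28b between 0.13 and 0.14, and Hmga2 between -0.016 and 0.015. The genes at least 2-fold lower numbered 81 and those higher 186, which became 52 and 88 with the floor at 7.21, and 446 and 644 with a threshold of 1.5-fold. Both follow from the construction of the alternative. The mean of the 5 genes in place of the median was -0.44, set by Lin28a. No paired analysis was possible because each time has 1 array, and no replicate could be left out.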

Other observations

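Other RNA-binding proteins of stem, germ and progenitor cells had a median difference of 0.13 over 14 genes at or above the floor, of which 3 were at least 1.5-fold higher (6.94% of all genes) and none at least 1.5-fold lower (4.80% of all genes). The cytoplasmic polyadenylation factor genes Cpeb2 (7.64 at 3 h and 6.75 at 0 h) and Cpeb4 (7.46 at 3 h and 6.79 at 0 h) were higher, as was Tial1 (9.20 at 3 h and 8.52 at 0 h), which encodes a stress granule protein. CPEB4 is known to repress translation during late erythroid differentiation in mice.

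Relatives of the genes described above, by ARID domain, cold-shock domain or CCHC zinc knuckles, included 11 genes at or above the floor. None of them differed by 1.5-fold, as was so for 88.3% of all genes. Arid4a (0.53), Carhsp1 (0.50) and Arid5a (-0.49) differed most. A probe set annotated to the pseudogene Hmga2-ps1, named after its values were seen, had 5.35 at 3 h and 4.75 at 0 h, below the floor at both times. The let-7 target gene Cdk6, also named after its values were seen, differed by -1.21 but was below the floor on both arrays (3.23 at 3 h and 4.44 at 0 h).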
